A study of Mus musculus with 15 samples.

Results

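The 10 genes described here mark the muscular and supporting cells of vessel walls and the contractile form of the fibroblast: Acta2, Tagln, Myh11, Cnn1, Lmod1, Smtn, Synpo2, Rgs5, Cspg4 and Notch3. They were taken by gene symbol from the 55401 genes of the deposited tables, and all 10 were among the 26862 genes tested, those whose counts over the 15 libraries added up to 10 or more. RNA came from hearts of C57BL6 male mice aged 12 weeks, that received either saline as the control or isoproterenol, an agonist of β-adrenergic receptors, under the skin for 4, 8 or 11 days (daily dose 50 mg/kg). Total RNA libraries of 15 hearts were used, 4 of saline, 4 of 4 days, 3 of 8 days (a further 8-day replicate was excluded by the study for quality) and 4 of 11 days, each named by its group and replicate letter. A small frozen piece of each perfused heart was used, so the cell make-up of a library is that of the piece. Saline was given for a similar period, and how many days each saline heart received is not given in the sources used here.

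Vascular smooth muscle cells wrap arteries and arterioles and set their diameter with a contractile apparatus of smooth muscle actin and myosin, which transcription factors of the serum response factor and myocardin family switch on. Pericytes sit on capillaries and share several of these genes, but are better told by Rgs5 and Cspg4. Myofibroblasts are fibroblasts that gain smooth muscle actin in wounds and fibrosis, and in the heart they arise where matrix is laid down. In bulk tissue, fewer cells of a type and less RNA of a gene per cell cannot be told apart.

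Depth ranged from about 25404162 to about 117777000 expected counts per library, and of these 47.5 to 58.4% came from the mitochondrial genome. In 8-day A, 15.8% of the counts fell on CT010467.1 and Lars2, against at most 0.0917% in the other libraries. Levels are given as CPM, the counts of a gene per fixed number of counts in its library, with the library size scaled by TMM, a factor that sets the bulk of genes equal between libraries, and levels of different genes are set side by side as deposited FPKM, which are per length. A change is given as the log2 ratio of the later or treated group to the other, beside its standard error (SE), from edgeR's quasi-likelihood test on the expected counts, with Benjamini-Hochberg adjustment over all genes tested and a threshold of 0.05. Nothing in the labels says whether hearts of a group shared a litter or a day, so p-values measure the spread between these hearts.

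By FPKM, Rgs5 had the highest level of the 10 genes in saline hearts, at 70.1 ± 10.7 (SD, n = 4), followed by Smtn at 38.0 ± 5.29 and Acta2 at 19.4 ± 4.60. Synpo2 was at 9.19 ± 0.557, Tagln at 5.41 ± 1.92, Notch3 at 4.60 ± 0.534, Myh11 at 3.56 ± 0.957 and Cspg4 at 2.88 ± 0.561. Cnn1, at 0.410 ± 0.199, and Lmod1, at 0.283 ± 0.0695, were the lowest. The ranges of Tagln and Notch3, of Notch3 and Myh11, of Myh11 and Cspg4, and of Cnn1 and Lmod1 overlapped, so those neighbours in the order were not separated by their spread over hearts.

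Over the time course, Synpo2 and Cspg4 were the 2 of the 10 genes that passed the F test for any difference among the groups (adjusted p from edgeR = 0.00396 and 0.00279), where 13% of all genes tested passed. Synpo2 was lower than in saline at all 3 times. Cspg4 rose at 4 days and was lower again at 11 days, when Acta2 and Smtn were also below their 4-day levels. Among the smooth muscle genes, Acta2, Tagln, Myh11, Cnn1 and Lmod1 had positive log2 fold changes at 4 and at 8 days. These did not pass the threshold in edgeR, with a wide spread among the hearts of a group. Smtn (-0.012 and -0.19) and Synpo2 (-0.37 and -0.37), also smooth muscle genes, had negative ones at these times. DESeq2 called Acta2 at 4 days (adjusted p = 0.032), and limma voom called Acta2 (adjusted p = 0.043) and Cnn1 (adjusted p = 0.016).

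Against saline, 1 of the 10 genes was higher at 4 days (Cspg4, background 6.05% of all genes tested) and 1 was lower (Synpo2, background 3.4%), so 2 were called in either direction (background 9.46%), and 4 had an unadjusted p under 0.05. At 4 days DESeq2 called 3 (Acta2 and Cspg4 higher, Synpo2 lower) and limma voom called 4 (the same and Cnn1, higher). At 8 days 0 of 10 were higher (background 1.07%) and 1 was lower (Synpo2, background 1.2%, or 2.27% in either direction) in edgeR, with 5 at an unadjusted p under 0.05; DESeq2 and limma voom each called 1, Synpo2. At 11 days 0 were higher (background 1.8%) and 1 was lower (Synpo2, background 1.95%) in edgeR, with 4 at an unadjusted p under 0.05. There DESeq2 called 3 (Lmod1 higher, Smtn and Synpo2 lower) and limma voom called 2 (Lmod1 higher, Synpo2 lower). The median log2 fold change of the 10 genes was 0.30 at 4 days, 0.20 at 8 days and 0.021 at 11 days, against 0.0061, -0.013 and -0.010 for all genes tested. With library size alone as the scaling, 3 genes were called higher and 0 lower at 4 days (Acta2, Cnn1 and Cspg4), 1 higher (Cnn1) and 0 lower at 8 days, and 0 at 11 days. Without saline D, 5 genes were called at 4 days (Acta2, Cnn1, Myh11, Synpo2 and Tagln) and 5 at 11 days (Cnn1, Lmod1, Myh11, Synpo2 and Tagln), while 1 was called at 4 days without saline A or 4-day A, 0 at 8 days without saline A, saline C or any 1 of the 8-day hearts, and 0 at 11 days without 11-day B or 11-day C. At 4 days DESeq2 called 3102 of all genes and limma voom 3101. The counts at 8 and 11 days from other tools, scalings or fits without a heart stand without a share over all genes. They are not read as a result. Over all genes tested, edgeR called 2826 at 4 days with library size alone and 1985 without saline D. It called 1685 at 4 days without saline A and 1387 without 4-day A. The main edgeR counts rest on 1 or 2 of 10 genes, and no count here was tested against the background.

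**Figure D1:**
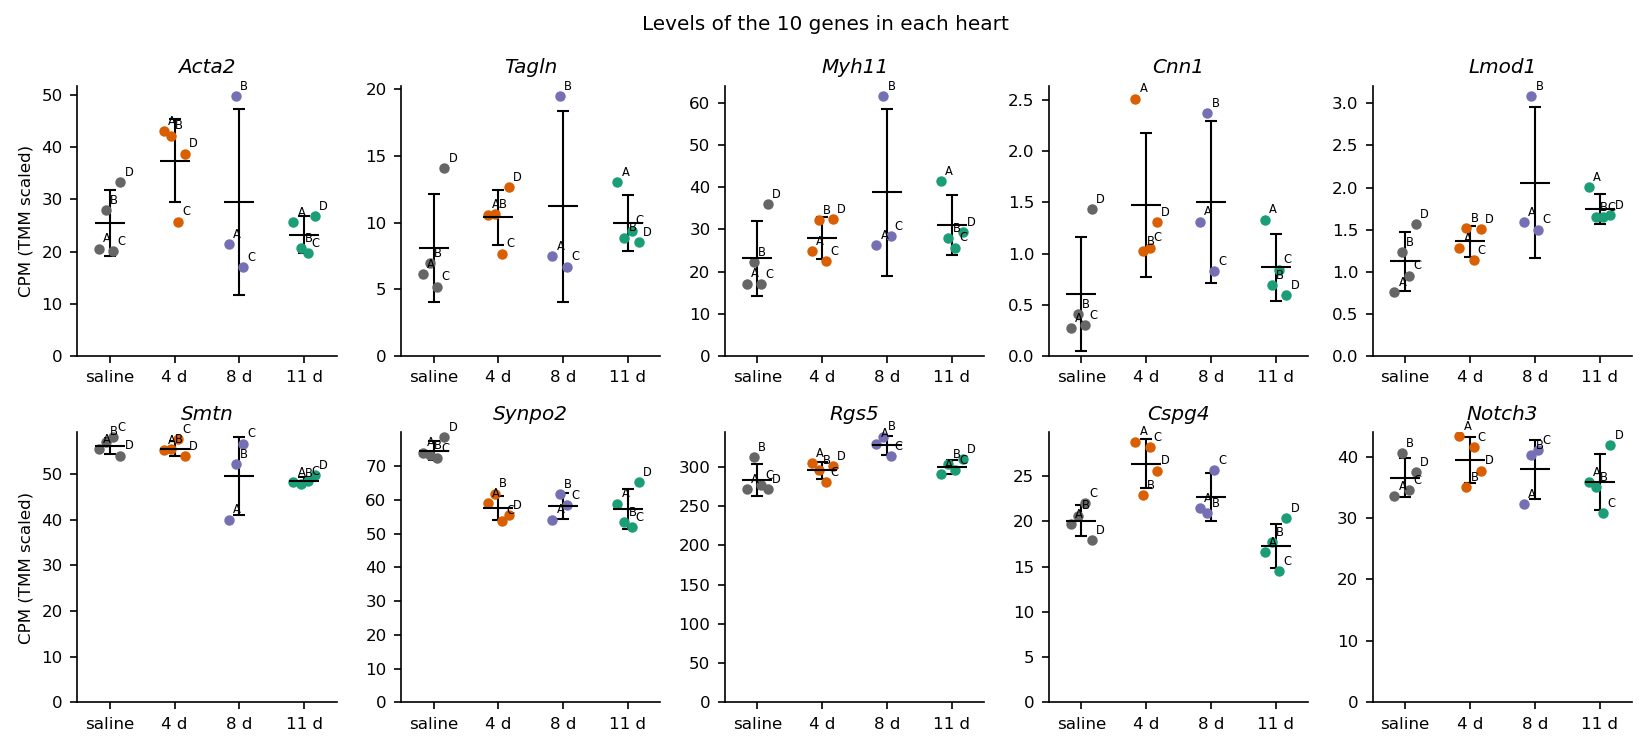
Level of each of the 10 genes in every heart, in CPM scaled by TMM (linear axes from 0), by group, with letters for the replicate and bars for the mean ± SD. Synpo2 sits between 72.4 and 78.6 CPM in the saline hearts and between 52.0 and 65.2 CPM in all treated hearts, while saline D and 8-day B stand above their groups for Tagln, Myh11, Cnn1 and Lmod1.

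Acta2 encodes smooth muscle α-actin, the main actin of the smooth muscle cell and the usual label of the myofibroblast. In the files it is ENSMUSG00000035783.9, at chr19:34241090-34255590 on the minus strand (GRCm38). Its level in saline A to D was 20.5, 27.9, 20.1 and 33.3 CPM, and in 4-day A to D it was 43.0, 42.2, 25.7 and 38.7 CPM. The 8-day hearts A to C had 21.4, 49.8 and 17.1 CPM, and the 11-day hearts A to D had 25.7, 20.7, 19.8 and 26.8 CPM. Of the 4-day hearts, 3 were above every saline heart and 4-day C was not, and 8-day B alone was high in its group. The log2 fold change was 0.57 (SE 0.177, 1.48-fold) at 4 days with an adjusted p from edgeR of 0.0627, 0.20 (SE 0.284, adjusted p = 0.835) at 8 days and -0.13 (SE 0.151, adjusted p = 0.751) at 11 days. The 4-day value passed the threshold in 6 of 13 other ways of processing (adjusted p 0.00354 to 0.171 in edgeR, DESeq2 or limma), and in 2 of the 8 fits that left out a heart, namely without saline D (0.71, adjusted p = 0.0241) and without 4-day C (0.70, adjusted p = 0.0152). At 8 days the sign turned without 8-day B, to -0.41 (adjusted p = 0.441).

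Set directly against the 4-day hearts, the 11-day hearts had less Acta2, by a log2 fold change of -0.69 (SE 0.146, 0.620-fold, adjusted p from edgeR = 0.00885). The groups overlapped through 4-day C, whose 25.7 CPM was below 11-day D. The call held in all 8 fits without a heart (-0.84 to -0.61) and was lost with robust dispersions (adjusted p = 0.0611) and with all groups in one fit (adjusted p = 0.107).

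Of the runs of 50 bases in Acta2 transcripts 0.326% also occur, base for base, in transcripts of other genes, Actg1 among them. Runs that differ at a few bases were not counted, so reads shared with close relatives are not measured by this. The promoter of Acta2 is shown because serum response factor binds CArG boxes there. The 250 bases before the RefSeq start site, read 5′ to 3′ from GRCm38.p6, chr19:34255374-34255623 on the minus strand, are given with the CArG-like boxes in capitals.
Acta2 promoter: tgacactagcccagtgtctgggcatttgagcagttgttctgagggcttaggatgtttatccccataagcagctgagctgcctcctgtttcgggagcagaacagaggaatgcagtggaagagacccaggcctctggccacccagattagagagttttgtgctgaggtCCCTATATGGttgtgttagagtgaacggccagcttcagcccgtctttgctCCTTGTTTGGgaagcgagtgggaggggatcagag
These boxes begin at -84 and -34 relative to the RefSeq start site, and each departs from the canonical box at 1 core base. The annotated span of Acta2 and of Acta2-201 begins at 34255590 on this strand, inside the stretch shown. Both boxes thus lie within that span and not upstream of it. RefSeq promoters of 300 bases (250 before and 50 after the start) were found for 8 of the 10 genes, all but Tagln and Myh11. A canonical CArG box was in 0 of the 8 (1.64% of 32544 promoters held one on either strand), and a box with at most 1 core base not A or T was in 1 of the 8, Acta2 (9.96% of all promoters). The looser form was searched after the canonical one had found none. TTCCCAC, the core of the site bound by the Notch effector RBPJ, was in 0 of the 8 on either strand (6.39% of all promoters). A match is a run of letters and was not tested as a binding site.

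Myh11 encodes the smooth muscle myosin heavy chain, the most specific single marker of the mature smooth muscle cell (ENSMUSG00000018830.10, chr16:14194535-14291372, minus strand). Its level was 17.1, 22.2, 17.0 and 36.1 CPM in saline A to D, and 24.9, 32.2, 22.5 and 32.4 CPM in 4-day A to D. It was 26.2, 61.7 and 28.5 CPM in 8-day A to C, and 41.4, 28.0, 25.7 and 29.3 CPM in 11-day A to D. Saline D was above every 4-day heart, and apart from it every treated heart was above every saline heart. The log2 fold change was 0.29 (SE 0.206) at 4 days, 0.75 (SE 0.286) at 8 days and 0.44 (SE 0.210) at 11 days, with adjusted p from edgeR of 0.464, 0.256 and 0.309. Without saline D it passed at 4 days (0.57, adjusted p = 0.0322) and at 11 days (0.73, adjusted p = 0.0215) but in no fit without a heart at 8 days, where leaving out 8-day B gave 0.24 (adjusted p = 0.763).

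Tagln encodes transgelin, an actin-binding protein that is among the first genes switched on in smooth muscle (ENSMUSG00000032085.5, chr9:45929619-45936058, minus strand). Its level in saline A to D was 6.12, 6.97, 5.19 and 14.1 CPM, and in 4-day A to D 10.6, 10.6, 7.66 and 12.6 CPM. In 8-day A to C it was 7.47, 19.5 and 6.70 CPM, and in 11-day A to D 13.0, 8.87, 9.40 and 8.51 CPM. Saline D was again above all 4-day and 11-day hearts, while the other saline hearts were below all of them. The log2 fold change of 0.40 (SE 0.252), 0.49 (SE 0.358) and 0.34 (SE 0.248) at 4, 8 and 11 days did not pass (adjusted p from edgeR = 0.397, 0.629 and 0.548). Without saline D, Tagln passed at 4 days (0.77, adjusted p = 0.0119) and 11 days (0.72, adjusted p = 0.0224), and without 8-day B its 8-day value turned to -0.17 (adjusted p = 0.891). Exons of the antisense gene Gm48529, at 0.318 to 1.01 CPM, cover 62.42% of the exonic bases of Tagln, and without a known strand setting reads of the pair cannot be told apart.

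Cnn1 encodes calponin, which binds actin and holds back the myosin motor in differentiated smooth muscle (ENSMUSG00000001349.5, chr9:22099216-22109630, plus strand). It was among the lowest of the 10 genes and rested on 14 to 36 expected counts per saline heart, so counting error is large. Its level was 0.270, 0.412, 0.304 and 1.44 CPM in saline A to D, and 2.51, 1.03, 1.06 and 1.31 CPM in 4-day A to D. It was 1.31, 2.37 and 0.83 CPM in 8-day A to C, and 1.33, 0.688, 0.843 and 0.598 CPM in 11-day A to D. Saline A, B and C were below every treated heart, and saline D was above all but 2 of them. The log2 fold change was the largest of the 10 genes at 4 days, at 1.58 (SE 0.467, 2.98-fold), just outside the threshold (adjusted p from edgeR = 0.0505). It was 1.49 (SE 0.513, adjusted p = 0.190) at 8 days and 0.74 (SE 0.455, adjusted p = 0.458) at 11 days. The 4-day value passed in 7 of 13 other ways of processing (adjusted p 0.0109 to 0.163 in edgeR, DESeq2 or limma) and without saline D, where it reached 2.23 (adjusted p = 0.00323), or without 4-day B (1.71, adjusted p = 0.0369). Leaving out saline D also brought a pass at 8 days (2.18, adjusted p = 0.00901) and at 11 days (1.43, adjusted p = 0.0287).

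Lmod1 encodes leiomodin, which starts the growth of actin filaments in smooth muscle (ENSMUSG00000048096.7, chr1:135324807-135368065, plus strand). Saline A to D had 0.756, 1.24, 0.955 and 1.56 CPM, and 4-day A to D had 1.28, 1.52, 1.14 and 1.51 CPM. In 8-day A to C the level was 1.59, 3.09 and 1.5 CPM, and in 11-day A to D it was 2.01, 1.65, 1.65 and 1.67 CPM. Every 11-day heart was above every saline heart, by a narrow margin over saline D. The log2 fold change was 0.31 (SE 0.22, adjusted p from edgeR = 0.463) at 4 days, 0.89 (SE 0.298, adjusted p = 0.172) at 8 days and 0.69 (SE 0.202, adjusted p = 0.0828) at 11 days. The 11-day value passed with DESeq2 (adjusted p = 0.0319), with limma voom (adjusted p = 0.0366) and without saline D (0.85, adjusted p = 0.029), out of a range of 0.0319 to 0.218 over 13 other ways of processing.

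The hearts that stood out were thus the same for these genes. Each level was taken as log2 CPM minus the mean of its group, and the deviations of Myh11 over the 15 hearts were set against those of the other 9 genes. Pearson's r was 0.96 with Tagln, 0.95 with Lmod1 and 0.86 with Acta2, and Spearman's rho was 0.90, 0.94 and 0.80 (permutation within groups, 100000 draws, adjusted p over 9 relations of 0.0043, 0.0034 and 0.0081 for r, and 0.0051, 0.0051 and 0.026 for rho). Without saline D and 8-day B, the 2 hearts farthest from the median of Myh11, r was 0.89, 0.88 and 0.74. Cnn1 had an r of 0.73 (permutation, adjusted p = 0.038) and a rho of 0.56 (adjusted p = 0.16), and r dropped to 0.45 without these 2 hearts, on which the relation rests.

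The other genes did not share this pattern at the threshold. Pearson's r with Myh11 was 0.54 for Synpo2 (permutation, adjusted p = 0.06), 0.24 for Notch3 (0.61), 0.16 for Rgs5 (0.73), 0.091 for Smtn (0.93) and -0.44 for Cspg4 (0.20). Their rho was 0.57, 0.34, 0.38, -0.057 and -0.40 (adjusted p from permutation = 0.06, 0.34, 0.34, 0.89 and 0.28), and r without saline D and 8-day B was 0.43, 0.14, 0.27, 0.058 and -0.25. Among the 13298 genes with a mean of at least 1 CPM, those most like Myh11 in these deviations were Tagln (r = 0.955), Myl9 (0.954), Lmod1 (0.946) and Mylk (0.936), over 15 hearts. Myl9 and Mylk encode the regulatory light chain of smooth muscle myosin and the kinase that activates it. Those most like Acta2 were Lmod1 (0.886), Myl9 (0.874), Tagln (0.871) and Mettl14 (0.864), and those most like Rgs5 were A930004D18Rik (0.935), Mat2a (0.874), Scd2 (0.854) and Ptges3-ps (0.845). All these points share the library and its scaling.

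**Figure D2:**
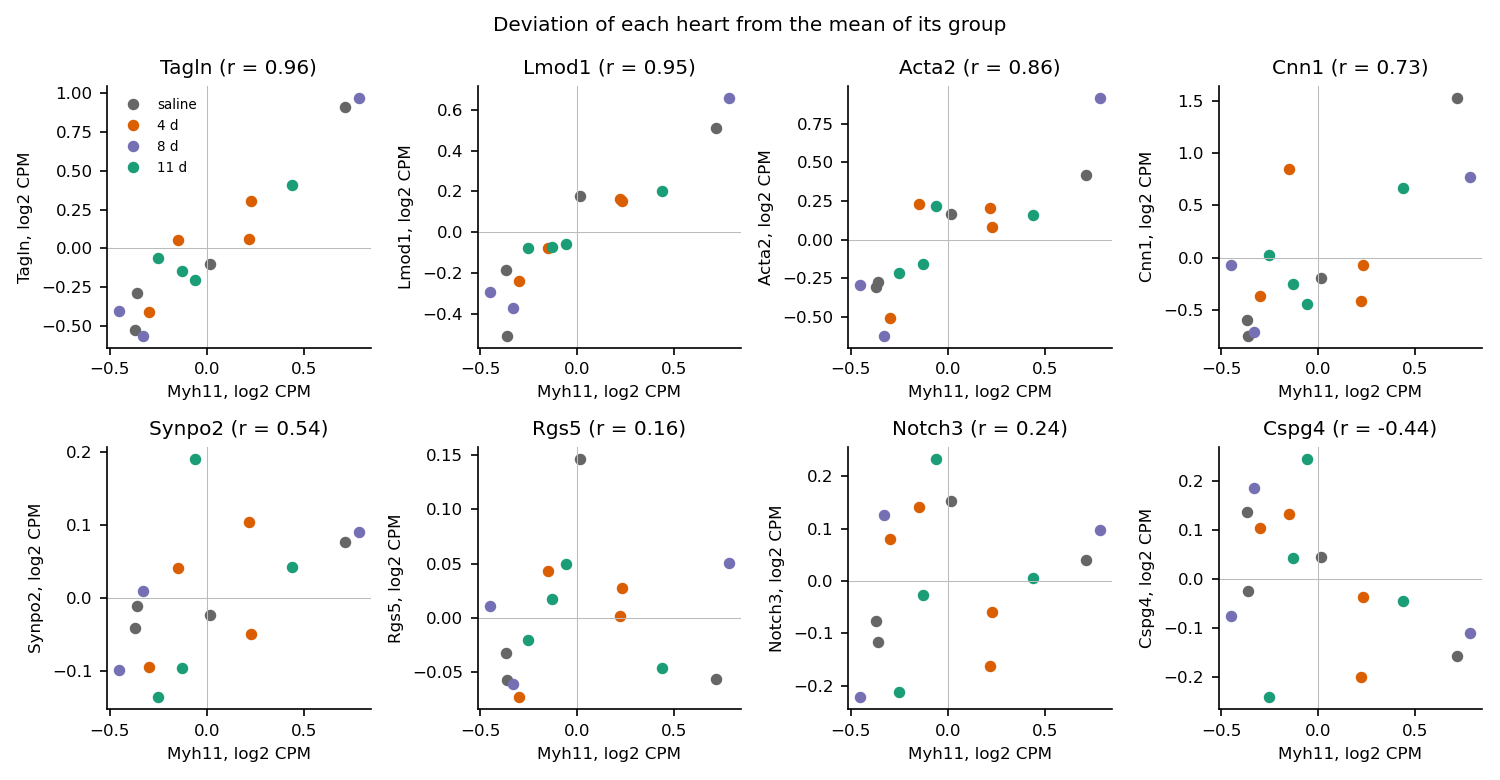
Deviation of each heart from the mean of its group in log2 CPM, Myh11 on the x axis and 1 other gene on the y axis of each panel, with 1 point per heart (n = 15) coloured by group. Tagln, Lmod1 and Acta2 follow Myh11 (r of 0.96, 0.95 and 0.86), with saline D and 8-day B at the upper right, while Rgs5, Notch3 and Cspg4 do not (r of 0.16, 0.24 and -0.44).

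In log2 units, saline D lay above its group mean by 0.71 for Myh11, 0.91 for Tagln, 1.53 for Cnn1, 0.51 for Lmod1 and 0.42 for Acta2, and 8-day B by 0.78, 0.97, 0.77, 0.66 and 0.92. Rgs5 in the same hearts was at -0.056 and 0.050, and Cspg4 at -0.16 and -0.11. Mitochondrial transcripts took 58.4% of the counts in saline D (51.2 to 54.4% in the other saline hearts) and 55.9% in 8-day B (49.6 and 51.3% in the other 8-day hearts), and these libraries were the shallowest of their groups. The mean log2 level of 25 genes of activated fibroblasts in saline D was 0.070 below the saline mean, that of 14 endothelial genes 0.22 below and that of 11 atrial genes 0.24 below. In 8-day B the same 3 means, again relative to saline, were 0.46, 0.23 and 0.18, against 0.61, -0.095 and 0.083 in 8-day A and 1.53, 0.13 and 0.62 in 8-day C, so activated fibroblast genes were lowest and endothelial genes highest in 8-day B among the 8-day hearts. The part of depth, mitochondrial share or the piece of tissue in these levels was not tested.

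Smtn encodes smoothelin, a protein of actin filaments in contractile smooth muscle (ENSMUSG00000020439.17, chr11:3517523-3540612, minus strand). Levels in saline A to D were 55.5, 57.1, 58.0 and 54.0 CPM, and those in 4-day A to D were 55.3, 55.4, 57.7 and 53.9 CPM. In 8-day A to C they were 40.04, 52.1 and 56.7 CPM, and in 11-day A to D 48.3, 47.9, 48.4 and 49.8 CPM. Saline and 4-day hearts covered the same range, all 11-day hearts were below all of those, and 8-day A, the library with many counts on CT010467.1 and Lars2, was the lowest of all. Against saline the log2 fold change was -0.012 (SE 0.0722) at 4 days, -0.19 (SE 0.112) at 8 days and -0.22 (SE 0.0637) at 11 days, and the adjusted p from edgeR was 0.957, 0.535 and 0.0820. The 11-day value passed with DESeq2 (adjusted p = 0.00389) and with the filter of filterByExpr (adjusted p = 0.0498), in a range of 0.00389 to 0.801 over 13 other ways of processing.

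Against the 4-day hearts the 11-day hearts had a log2 fold change of Smtn of -0.20 (SE 0.0579, 0.870-fold, adjusted p from edgeR = 0.0416), with no overlap. It was lost in all 8 fits that left out a heart (adjusted p 0.0598 to 0.139), with the log2 fold change between -0.21 and -0.18 in them. Exons of Gm11946, on the opposite strand at 0.794 to 1.78 CPM, cover 16.3% of the exonic bases of Smtn.

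By RSEM's estimate, the transcript Smtn-201 held 49.0 ± 2.16% of Smtn in saline hearts (SD, n = 4), Smtn-206 held 34.1 ± 1.5% and Smtn-202 held 9.25 ± 4.65%. Smtn-201 is a coding transcript of 1747 bases that starts inside the gene, at position 3527937, Smtn-206 is an annotated processed transcript of 625 bases, and Smtn-202 is a coding transcript of 3335 bases. The share of Smtn-201 was 49.4 ± 1.58%, 52.5 ± 1.02% and 47.8 ± 1.68% at 4, 8 and 11 days. By these shares the shorter Smtn-201 and Smtn-206 thus held more of Smtn than Smtn-202. The shares do not follow the counts: mean expected counts in saline were 1820 for Smtn-201, 367 for Smtn-206 and 517 for Smtn-202.

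Synpo2 encodes synaptopodin 2, or myopodin, an actin-bundling protein of smooth muscle that is also a protein of the Z-disc of heart and skeletal muscle (ENSMUSG00000050315.14, chr3:123076519-123236149, minus strand). Saline A to D had 73.9, 73.3, 72.4 and 78.6 CPM, and 4-day A to D had 59.1, 61.8, 53.8 and 55.5 CPM. The 8-day hearts A to C had 54.1, 61.7 and 58.4 CPM, and the 11-day hearts A to D had 58.8, 53.4, 52.0 and 65.2 CPM. Every treated heart was below every saline heart, and the 3 treated groups overlapped. In edgeR, Synpo2 fell by 0.37 on the log2 scale at 4 days (SE 0.0768, 0.775-fold, adjusted p = 0.00834), by 0.37 at 8 days (SE 0.0892, 0.776-fold, adjusted p = 0.0494) and by 0.38 at 11 days (SE 0.0806, 0.766-fold, adjusted p = 0.0179). These comparisons share the saline hearts. Between treated groups its log2 fold change was 0.0045 (SE 0.0861) for 8 against 4 days and -0.012 (SE 0.0808) for 11 against 4 days (adjusted p from edgeR = 0.993 and 0.958).

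The 4-day call of Synpo2 held in all 8 fits without a heart (-0.40 to -0.35, adjusted p from edgeR 0.00735 to 0.0321). The 8-day call was lost in 6 of 7 such fits, all but that without saline B (adjusted p 0.0468 to 0.173), and the 11-day call without 11-day B (-0.35, adjusted p = 0.0805) or 11-day C (-0.34, adjusted p = 0.0692). Scaling by library size alone ended the call at all 3 times, with log2 fold changes of -0.16, -0.43 and -0.30 (adjusted p = 0.362, 0.673 and 0.165). Over all genes, the median change under that scaling was 0.21 at 4 days (0.0061 with TMM), -0.10 at 8 days and 0.060 at 11 days, and relative to these medians Synpo2 was at -0.37, -0.33 and -0.36. Of 14 cardiomyocyte genes 5 fell and 2 rose at 4 days, with a median log2 fold change of -0.18, and 1 fell at each of 8 and 11 days (medians -0.15 and -0.042). Whether the change of Synpo2 lies in smooth muscle or in cardiomyocytes was not tested.

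RSEM split Synpo2 mainly between Synpo2-207, at 54.8 ± 3.63% of the gene in saline hearts (SD, n = 4), and Synpo2-203, at 37.8 ± 4.76%. At 4 days the shares were 65.9 ± 5.13% and 25.6 ± 8.97%, at 8 days 55.8 ± 8.36% and 35.7 ± 8.51%, and at 11 days 47.0 ± 7.26% and 42.1 ± 3.13%. Synpo2-203 had the larger log2 fold change at 4 days, -0.98 (SE 0.25, adjusted p from edgeR over all transcripts = 0.202, unadjusted p = 0.0035), against -0.15 (SE 0.0844, unadjusted p = 0.114) for Synpo2-207. At 11 days the order was the other way, with -0.55 (SE 0.11, adjusted p = 0.179, unadjusted p = 0.000746) for Synpo2-207 and -0.16 (SE 0.140, adjusted p = 0.894) for Synpo2-203. None of these passed the threshold, and the difference between the transcripts was not tested.

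Rgs5 encodes a regulator of G protein signalling that shortens the response of receptors such as those for angiotensin and endothelin, and it is the most used marker of pericytes (ENSMUSG00000026678.10, chr1:169655501-169695813, plus strand). Its level was 272, 313, 277 and 272 CPM in saline A to D, and 304, 296, 281 and 301 CPM in 4-day A to D. It was 330, 339 and 314 CPM in 8-day A to C, and 290, 304, 296 and 310 CPM in 11-day A to D. Saline B stood apart from the other saline hearts, all 8-day hearts were above all saline hearts, and the remaining groups overlapped with saline. Its log2 fold change was 0.066 (SE 0.0829), 0.20 (SE 0.0944) and 0.075 (SE 0.0731) at 4, 8 and 11 days (adjusted p from edgeR = 0.724, 0.384 and 0.681), and over all 13 other ways of processing and all fits without a heart it passed at none of these times.

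Cspg4 encodes NG2, a proteoglycan on the surface of pericytes and growing mural cells (ENSMUSG00000032911.6, chr9:56865033-56899870, plus strand). Saline A to D had 19.7, 20.7, 22.0 and 17.9 CPM, and 4-day A to D had 28.8, 22.9, 28.2 and 25.6 CPM. The level was 21.4, 20.9 and 25.7 CPM in 8-day A to C, and 16.6, 17.7, 14.5 and 20.3 CPM in 11-day A to D. All 4-day hearts were above all saline hearts, the 8-day hearts overlapped with both groups, and the 11-day hearts reached below the saline range. Cspg4 rose at 4 days by a log2 fold change of 0.40 (SE 0.0947, 1.32-fold, adjusted p from edgeR = 0.0176), and the values at 8 days (0.17, SE 0.107, adjusted p = 0.561) and 11 days (-0.23, SE 0.101, adjusted p = 0.270) did not pass.

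The 4-day call of Cspg4 was lost without saline A (adjusted p = 0.0553), saline D (0.0505), 4-day A (0.0754) or 4-day C (0.0603), with log2 fold changes of 0.34 to 0.46 over the 8 fits in edgeR. It was also lost with effective lengths as offsets (0.31, adjusted p = 0.117) and on log2(FPKM + 1) in limma (0.40, adjusted p = 0.147). From 4 to 11 days Cspg4 fell by 0.62 on the log2 scale (SE 0.10, 0.651-fold, adjusted p from edgeR = 0.00197), with no overlap between the groups and in all 8 fits without a heart (-0.70 to -0.53). This call was lost on log2(FPKM + 0.1) and log2(FPKM + 1) in limma (adjusted p = 0.0573 and 0.0669). From 8 to 11 days the groups did not overlap either, with a log2 fold change of -0.39 (SE 0.109, adjusted p = 0.167). Most of the gene, 70.7 ± 8.23% in saline hearts and 79.2 ± 1.10% in 4-day hearts, was assigned to the coding transcript Cspg4-201, whose log2 fold change at 4 days was 0.52 (SE 0.114, adjusted p over all transcripts = 0.134).

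Notch3 encodes the Notch receptor of arterial smooth muscle and pericytes, which is needed for them to mature (ENSMUSG00000038146.8, chr17:32120820-32166852, minus strand). Levels were 33.6, 40.6, 34.6 and 37.5 CPM in saline A to D, and 43.3, 35.1, 41.5 and 37.7 CPM in 4-day A to D. They were 32.3, 40.3 and 41.1 CPM in 8-day A to C, and 35.8, 35, 30.8 and 41.9 CPM in 11-day A to D. All 4 groups overlapped. Exons of the antisense gene Gm17276, at 1.06 to 2.45 CPM, cover 6.03% of the exonic bases of Notch3. For Notch3 the log2 fold change was 0.12 (SE 0.0914), 0.047 (SE 0.108) and -0.032 (SE 0.0956) at 4, 8 and 11 days, with adjusted p from edgeR of 0.527, 0.913 and 0.916. The deviations of Notch3 and Cspg4 from their group means had a Pearson's r of 0.68 and a rho of 0.62 over the 15 hearts, given as a description.

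**Figure D3:**
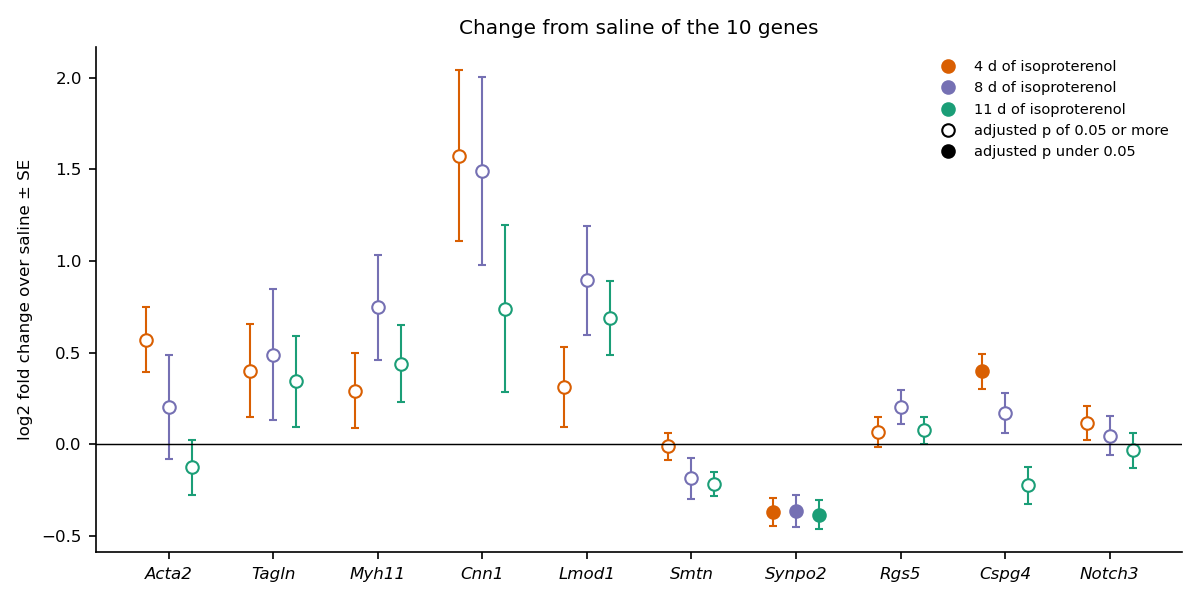
Log2 fold change over saline of the 10 genes at 4, 8 and 11 days, with bars for the SE from edgeR, filled where the adjusted p was under 0.05. Filled points are Synpo2 at all 3 times (-0.37, -0.37 and -0.38) and Cspg4 at 4 days (0.40), and the widest bars are those of Cnn1 (SE 0.467, 0.513 and 0.455).

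Compared directly, 3 of the 10 genes were lower at 11 than at 4 days (Acta2, Smtn and Cspg4, background 6.55%) and 0 were higher (background 3.75%, or 10.3% in either direction) by edgeR, with 5 at an unadjusted p under 0.05, and DESeq2 and limma voom called the same 3 genes. Cnn1, at -0.84 (SE 0.312, adjusted p = 0.114), and Lmod1, at 0.38 (SE 0.147, adjusted p = 0.128), were the others at an unadjusted p under 0.05, with Lmod1 in the 11-day hearts above all 4-day hearts. Tagln (-0.054), Myh11 (0.15), Rgs5 (0.014) and Notch3 (-0.14) had adjusted p from edgeR between 0.401 and 0.939. The median of the 10 genes was -0.099, against -0.0093 for all genes.

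For 8 against 4 days edgeR called 0 of the 10 genes (background 0.249%), with 2 at an unadjusted p under 0.05, Lmod1 (0.59, SE 0.25) and Cspg4 (-0.23, SE 0.105), and DESeq2 and limma voom called 0. Acta2 was at -0.36, Tagln at 0.096, Myh11 at 0.46, Cnn1 at -0.052, Smtn at -0.17, Rgs5 at 0.14 and Notch3 at -0.067 in this comparison, with adjusted p between 0.502 and 0.981. For 11 against 8 days edgeR again called 0 (background 0.138%, or 0.0782% lower), with 2 at an unadjusted p under 0.05, Cnn1 (-0.78, SE 0.337) and Cspg4, and limma voom called 0 but DESeq2 called 1, Cspg4 (-0.40, adjusted p = 0.0458). Acta2 (-0.33), Tagln (-0.15), Myh11 (-0.31), Lmod1 (-0.21), Smtn (-0.030), Rgs5 (-0.13), Notch3 (-0.078) and Synpo2 (-0.018) had adjusted p between 0.557 and 0.966.

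Groups that did not overlap were counted in each direction, with no test of the counts against those of all genes. In the 4-day hearts 1 gene lay wholly above saline (background 8%) and 1 wholly below (background 5.65%), at 8 days 1 above (Rgs5, background 6.88%) and 1 below (background 5.97%), and at 11 days 1 above (Lmod1, background 5.85%) and 2 below (Smtn and Synpo2, background 4.77%). Between 11 and 4 days it was 1 above (Lmod1, background 7.21%) and 2 below (background 7.15%), between 8 and 4 days 1 above (Rgs5, background 4.69%) and 0 below (background 5.93%), and between 11 and 8 days 0 above (background 6.44%) and 2 below (Rgs5 and Cspg4, background 5.11%).

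The tables of transcripts were tested in the same way. Of 41 annotated transcripts of the 10 genes 37 were tested, and edgeR called 0 at 4 days (background 0.17% of 83065 transcripts), 0 at 8 days (background 0.00843%) and 0 at 11 days (background 0.0421%), with 5, 5 and 6 at an unadjusted p under 0.05. Myh11-201 had the largest log2 fold change at 8 days among transcripts of Myh11, 1.83 (SE 0.346, adjusted p = 0.295), and its share of the gene was 18.8 ± 12.2% in saline hearts (SD, n = 4) and 39.5 ± 15.2% in 8-day hearts (n = 3). Myh11-204 went from 58.8 ± 11.2% to 39.5 ± 7.78%, with a log2 fold change of 0.14 (SE 0.503). By share, Acta2 was divided evenly between Acta2-201, at 49.7 ± 5.86% of the gene in saline, and the shorter Acta2-202 of 826 bases, at 50.3 ± 5.86%. Their mean expected counts in saline were 981 and 332. Both had similar log2 fold changes at 4 days, 0.57 (SE 0.205) and 0.63 (SE 0.254). Rgs5, Notch3, Lmod1 and Tagln were carried by 1 transcript each, at 99.6, 97.4, 100 and 94.8% of the gene in saline.

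**Figure D4:**
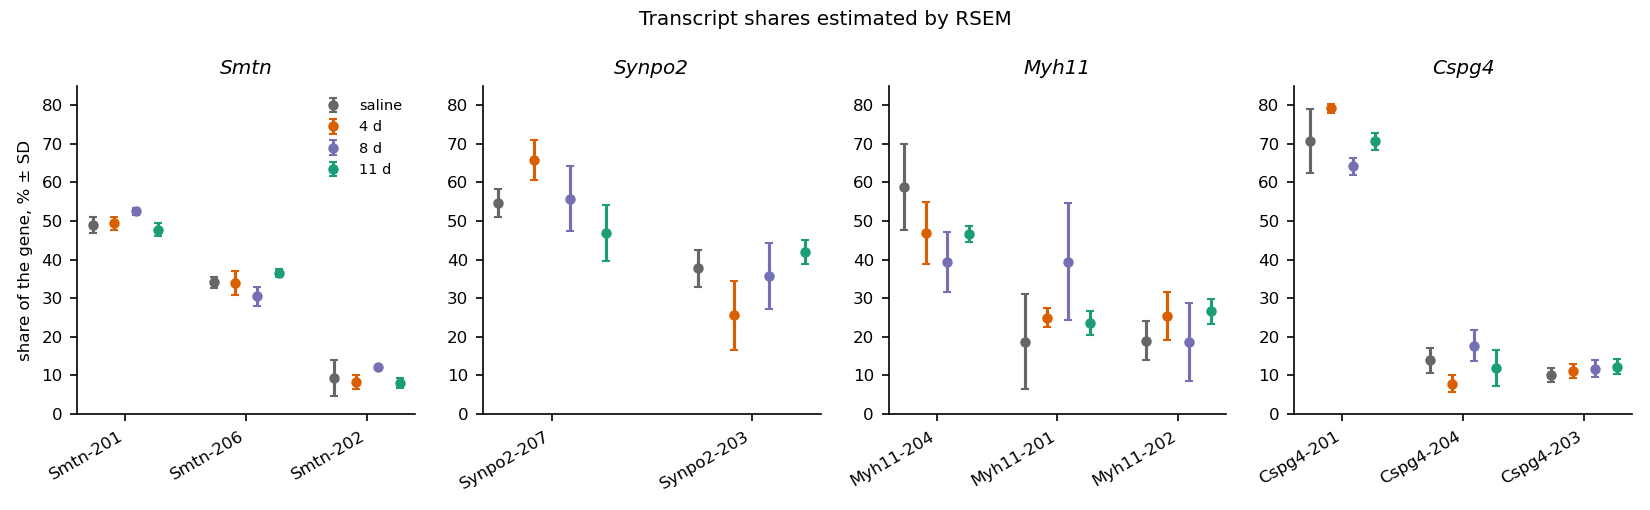
Share of its gene held by each main transcript of Smtn, Synpo2, Myh11 and Cspg4, as RSEM estimated it, by group (points are means in %, bars ± SD, n = 4, or 3 at 8 days). Smtn-201 holds the largest share of Smtn shown in each group (49.0, 49.4, 52.5 and 47.8%), while the shares of Synpo2-207 (54.8% in saline, 65.9% at 4 days) and Myh11-204 vary more between groups and hearts.

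A list of other genes linked to smooth muscle was tested in the same way. Not all are part of the contractile apparatus, as with Sost, Aoc3, Itga8, Map1b and Sncg. Some had high levels in these hearts, such as Tpm1, Fhl2, Casq2 and Ldb3 (3330, 450, 367 and 324 CPM in saline, against 23.1 CPM for Myh11). Its counts and medians are those of a mixed list and do not stand for smooth muscle alone. Of its 42 genes 5 rose and 1 fell at 4 days in edgeR (background 9.46% in either direction). At 11 against 4 days 1 was higher (background 3.75%) and 11 lower (background 6.55%), with 3 higher and 12 lower in DESeq2 and in limma voom. A fall from 4 to 11 days was not particular to this list. In edgeR, 0 of 25 activated fibroblast genes were higher and 22 lower, and 0 of 12 macrophage genes were higher and 9 lower. Of 16 resting fibroblast genes 1 was higher and 7 lower, and of 5 other actin genes 0 and 4. Of 14 endothelial genes 3 were higher and 0 lower, and of 14 cardiomyocyte genes 6 and 2. At 8 days 1 rose and 0 fell in edgeR (13 at an unadjusted p under 0.05, 4 called higher and 2 lower by DESeq2 and 2 higher by limma voom), and 0 of 42 passed at 11 days in edgeR (18 at an unadjusted p under 0.05, 2 called higher and 2 lower by DESeq2 and 1 lower by limma voom). Their median log2 fold change was 0.18, 0.12 and 0.063 at the 3 times. For this list and all those below, the background in edgeR was 6.05% higher and 3.4% lower at 4 days. It was 1.07% and 1.2% at 8 days, and 1.8% and 1.95% at 11 days. Csrp2, a LIM protein of smooth muscle, rose by 1.43 at 4 days in edgeR (SE 0.230, adjusted p = 0.00163) and did not pass later (0.49 and 0.44, adjusted p = 0.328 and 0.238). Des, the muscle intermediate filament, which cardiomyocytes express too, rose by 0.54 at 4 days (SE 0.11, adjusted p = 0.00859), and Myl6, a myosin light chain of many cell types, rose by 0.43 (SE 0.11, adjusted p = 0.0287). Sost, the gene that fell, had a mean of 0.0591 CPM in saline, too few counts for a fold change, and was at 0 in all 4-day hearts. Genes of serum response factor and its partners split, with 1 of 20 higher and 2 lower at 4 days and 1 higher and 1 lower at each later time. Fhl1, a LIM protein that also responds to load in cardiomyocytes, rose at all 3 times (2.12, 1.35 and 0.53, adjusted p from edgeR = 0.000538, 0.00019 and 0.00118), and Hopx, a repressor of serum response factor activity, fell (-0.44, -0.54 and -0.36, adjusted p = 0.0124, 0.00718 and 0.0167). Foxo4 fell at 4 days (-0.39, adjusted p = 0.0305) and was at -0.086 and -0.070 later (adjusted p = 0.833 and 0.762), and Mrtfb, a myocardin-related cofactor, was at 0.20, 0.36 and 0.20 (adjusted p = 0.185, 0.104 and 0.246).

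Pericyte genes moved in both directions. Of 24 tested besides the members, 3 rose and 6 fell at 4 days, 0 rose and 3 fell at 8 days, and 1 rose and 1 fell at 11 days in edgeR. At 8 days 8 had an unadjusted p under 0.05, and DESeq2 called 2 higher and 4 lower, limma voom 0 higher and 3 lower. The 24 genes had median log2 fold changes of 0.089, 0.038 and -0.037 at the 3 times. Art3 fell at all 3 times (-0.92, -0.71 and -0.42, adjusted p from edgeR = 0.000632, 0.0078 and 0.0157), and Angpt1, the ligand that mural cells send to the endothelial receptor Tie2, fell at 4 and 8 days (-1.09 and -1.02, adjusted p = 0.000672 and 0.00533) and was at -0.50 at 11 days (adjusted p = 0.195). Anpep, the aminopeptidase CD13, rose at 4 days (1.22, adjusted p = 0.00357), as did the transcription factor Ebf1 (0.55, adjusted p = 0.0045), and at 8 and 11 days neither passed (0.39 and 0.26 for Anpep, 0.41 and 0.17 for Ebf1). The channel subunits Kcnj8 and Abcc9 were lower at 4 days (-0.32 and -0.44, adjusted p = 0.0343 and 0.0326), Abcc9 being also a cardiomyocyte gene, while Pdgfrb and Higd1b were at 0.089 and -0.072 (adjusted p = 0.633 and 0.876). Kcnj8, Abcc9, Pdgfrb and Higd1b are given as markers and not for their changes. The summed level of the 24 genes ran from 674 to 716 CPM in saline and from 551 to 627, 580 to 602 and 596 to 682 CPM at 4, 8 and 11 days. Abcc9 was the largest part of this sum, with a mean of 285 CPM in saline and 210, 222 and 250 CPM at these times. Art3 went from 83 CPM in saline to 43.8, 50.8 and 62.5 CPM, so the sum does not stand for the list as a whole.

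In the signals that recruit mural cells to vessels, 2 of 17 genes rose (background 6.05%) and 3 fell (background 3.4%) at 4 days, and 1 rose and 1 fell at each later time. Besides Angpt1, these were led by Tgfbr2, a receptor of transforming growth factor β (0.46, 0.33 and 0.26, adjusted p from edgeR = 0.00379, 0.145 and 0.0817), Hbegf, a growth factor of the epidermal growth factor family (0.60, 0.64 and 0.47, adjusted p = 0.00709, 0.00986 and 0.0181), and S1pr3, a sphingosine phosphate receptor (-0.40, -0.39 and -0.41, adjusted p = 0.01, 0.0841 and 0.0267). In the Notch pathway, 2 of 31 genes rose, near the background of 6.05%, and 0 fell (background 3.4%) at 4 days in edgeR. There 8 had an unadjusted p under 0.05, while DESeq2 and limma voom each called 2 higher and 2 lower. In edgeR 0 passed at 8 or 11 days (4 and 8 at an unadjusted p under 0.05, 0 and 0 called by DESeq2, 0 and 0 by limma voom). The 2 that rose were Numbl, a Notch inhibitor (0.67, adjusted p = 0.00465), and Jag1, a ligand that endothelium presents to Notch3 (0.47, adjusted p = 0.00958), followed by Dtx1 (-1.16, adjusted p = 0.0579) and the target gene Hey2 (-0.45, adjusted p = 0.081). At 8 and 11 days these 4 genes were at 0.46 and 0.31, 0.30 and 0.25, -0.58 and -0.42, and -0.063 and -0.16.

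Beside Rgs5, which did not pass, 4 of 16 other genes of its family rose (background 6.05%) and 2 fell (background 3.4%) at 4 days. Rgs12 rose by 0.47 (adjusted p from edgeR = 0.00376) and again by 0.34 at 11 days (adjusted p = 0.0331), with 0.34 at 8 days (adjusted p = 0.230). The blood cell genes Rgs10 and Rgs18 rose at 4 days (1.13 and 1.14, adjusted p = 0.0043 and 0.0123), and Rgs1 fell at all 3 times (-1.98, -2.01 and -1.56, adjusted p = 0.0101, 0.0375 and 0.0449). Beside Acta2, Acta1, the skeletal α-actin that the stressed heart re-expresses, rose by 2.64 at 4 days (adjusted p = 0.00312) and 1.96 at 8 days (adjusted p = 0.0497) and was at 0.57 at 11 days (adjusted p = 0.599). Actc1, the cardiac α-actin, was at 0.36, 0.0044 and -0.22 (adjusted p = 0.0573, 0.997 and 0.169), Actg1, a cytoplasmic actin, fell at 11 days (-0.54, adjusted p = 0.00516), and Actg2, the enteric smooth muscle actin, was at 0.97, 1.55 and 0.99 on mean levels of 0.146 CPM in saline to 0.337 CPM at 8 days (adjusted p = 0.419, 0.377 and 0.472).

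The other cell types of the tissue were read from their own marker lists, since Acta2 is shared with myofibroblasts. Of 25 genes of activated fibroblasts 23 rose at 4 days, 10 at 8 days and 2 at 11 days, and 0 fell at any time in edgeR, DESeq2 or limma voom, with median log2 fold changes of 2.8, 0.83 and 0.66. Their summed level ran from 357 to 557 CPM in saline, 1420 to 5770 CPM at 4 days, 637 to 1440 CPM at 8 days and 429 to 992 CPM at 11 days. Postn, a matrix protein of activated fibroblasts, rose at 4 days by 4.59 in edgeR (SE 0.410, adjusted p = 9.63e-05) and Thbs4 by 4.74 (SE 0.370, adjusted p = 2.75e-05), beside the log2 fold change of 0.57 for Acta2 in the same hearts. Of 16 genes of resting fibroblasts 11 rose and 1 fell at 4 days, 3 rose at 8 days and 5 at 11 days, led by Lum (1.79, 1.13 and 1.11, adjusted p = 0.000111, 0.000849 and 0.00223) and Mfap4 (2.64, 1.65 and 0.73, adjusted p = 0.000388, 0.00531 and 0.243). Of 12 macrophage genes 9 rose at 4 days, Cd68 by 1.83 and Lyz2 by 1.62 (adjusted p = 0.000589 and 0.000882), and their summed level went from 122 to 194 CPM in saline to 231 to 383 CPM at 4 days.

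Of 14 endothelial genes 0 passed at 4, 8 or 11 days in edgeR (5, 2 and 1 at an unadjusted p under 0.05, 1, 0 and 0 called by DESeq2, 1, 0 and 0 by limma voom), and Fabp4 and Esam had the smallest p at 4 days (-0.39 and -0.24, adjusted p = 0.0737 and 0.169). Of the 14 cardiomyocyte genes, Myl2 (-0.73, adjusted p from edgeR = 0.00169) and Myoz2 (-0.64, adjusted p = 0.00275) led at 4 days. Of 11 atrial genes 2 rose and 1 fell at 4 days, among them Nppa, which the stressed ventricle also makes (3.85, 2.57 and 1.57, adjusted p = 0.000698, 0.0302 and 0.0766), and Dkk3 (2.34, 1.60 and 1.77, adjusted p = 0.00122, 0.0382 and 0.0150). Of 11 genes of Schwann cells, adipocytes and blood 2 fell at 4 days, Alas2 (-1.33, adjusted p = 0.0410) and the globin gene Hbb-bs (-1.70, adjusted p = 0.0473), and 2 at 11 days. What part these other cells had in the levels of the 10 genes was not tested.

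**Figure D5:**
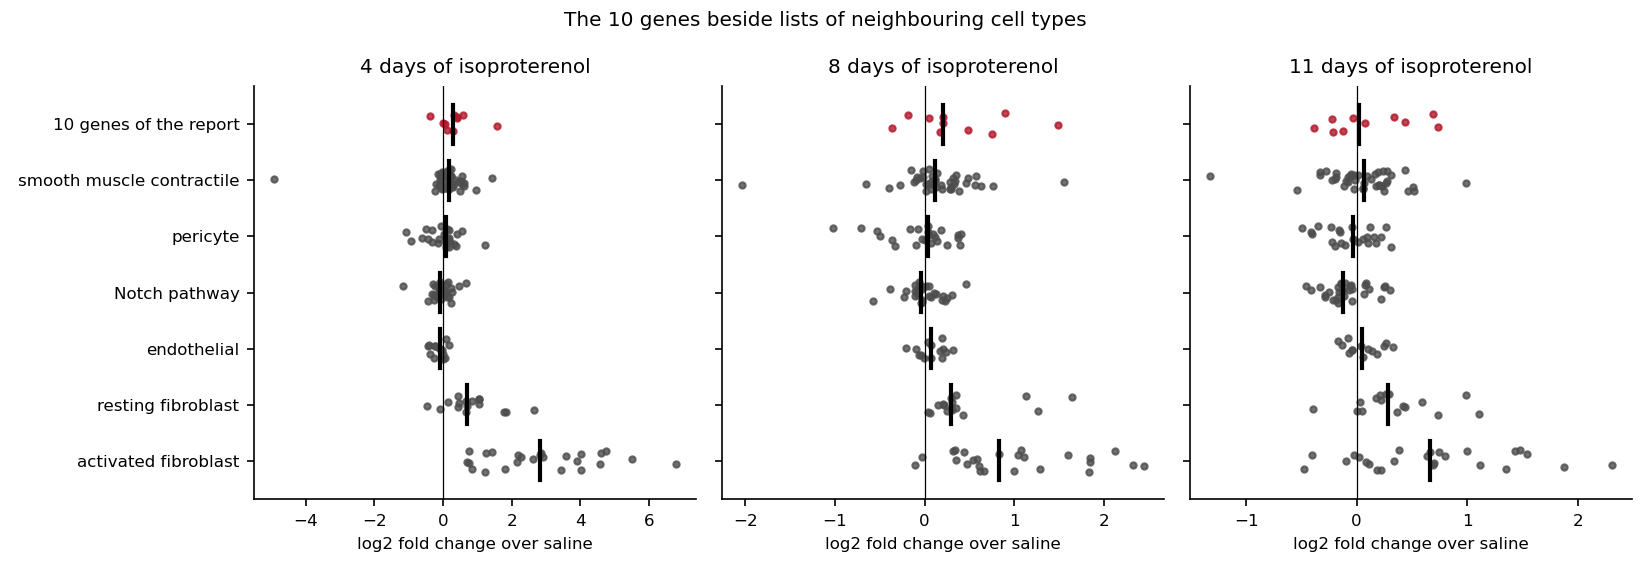
Log2 fold change over saline of the 10 genes (red) and of the genes of 6 lists (grey), at 4, 8 and 11 days, with 1 point per gene and a black bar at the median of each list, the x axis differing between panels. The 10 genes have medians of 0.30, 0.20 and 0.021, the mixed list of smooth muscle genes 0.18, 0.12 and 0.063, and pericyte genes 0.089, 0.038 and -0.037. Notch genes have medians of -0.075, -0.044 and -0.12, and endothelial genes -0.095, 0.072 and 0.048. Resting fibroblast genes have medians of 0.70, 0.30 and 0.28, and activated fibroblast genes 2.8, 0.83 and 0.66.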

How the data were processed

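Total RNA of 15 mouse hearts was sequenced from TruSeq libraries. Per the submitters' processing notes, reads were trimmed with cutadapt 4.1, aligned with HISAT2 2.2.1 and quantified with RSEM 1.3.3 on GRCm38.p6, and DESeq2 was used. The strand setting is not given in the sources used here. The deposited values are RSEM's expected counts, which the authors left without normalization, FPKM per gene and, per transcript, the percent of its gene. No column of another sample was left out. Positions are those of the files' gene identifiers on GRCm38, and promoter sequences are from RefSeq.

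Expected counts were rounded, genes whose counts over 15 libraries added up to 10 or more were kept, and groups were compared in pairs with edgeR 4.0.16 (TMM, quasi-likelihood test, adjusted p under 0.05) in R 4.3.3. Alternatives were DESeq2 1.42.0, limma 3.58.1 (voom with quality weights, or log2 of FPKM plus 0.1 or 1), other scalings, filters and dispersions, effective lengths as offsets, a replicate block and each heart left out. The steps were tested on simulated data. Same-letter hearts had correlations of deviations from -0.29 to 0.14, and the letters were not taken as pairs in the main fits. These correlations cannot decide whether hearts of the same letter shared a litter or a day.

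Named were all 10 genes in each comparison, transcripts with at least 10% of their gene, the up to 4 genes of each list with the smallest p at 4 days (up to 2 for other cell types), and the 4 genes most like Acta2, Myh11 and Rgs5. Pdgfrb, Higd1b, Kcnj8 and Abcc9 fall outside this rule and were added as pericyte markers after their values were seen. Members and lists were chosen with earlier results of these data known.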

Additional observations from a re-analysis of the deposited data

Results flagged for a closer look

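Of 30 groups of 4 hearts tested for a heart far from the others, 2 were picked out, and chance picks about 1 in 20 groups. Lmod1 in 11-day A was at 2.01 CPM against 1.65 to 1.67 CPM in the other 11-day hearts, a gap of 0.928 of the range of the group. Rgs5 in saline B was at 313 CPM against 272 to 276 CPM, a gap of 0.877 of the range.

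The changes at 4 and at 11 days were set against each other by the direct test of the 11-day against the 4-day hearts. They differed for Acta2 (log2 -0.691, adjusted p from edgeR = 0.00885), Cspg4 (-0.619, adjusted p = 0.00197) and Smtn (-0.201, adjusted p = 0.0416), the last being lost on leaving out any 1 heart (adjusted p 0.0598 to 0.139).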

How the results depend on the processing

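Of 1290 recomputed log2 fold changes of the 10 genes, 1111 kept direction and side of the threshold, 51 lost and 39 gained a call, and 89 changed sign, none of them called in either fit. Members called at 4, 8 and 11 days numbered 2, 1 and 1, and 3 at 11 against 4 days, 0 at 11 against 8 days and 2 in the F test. They became 1, 0 and 0 at an adjusted p under 0.01. Both FPKM scales gave 0, 0 and 0, 1 at 11 against 4 days and 0 in the F test. At 4 days they were 4 without the mitochondrial genome in the library size, with no filter, and with limma voom. Over all genes these 3 settings called 2492, 2763 and 3101 at 4 days, against 2540 in the main fit. An adjusted p under 0.01 left 1159 of all genes at 4 days, and the FPKM scales 1005 and 834. For changed settings, totals over all genes are given at 4 days only, so members called at other times stand without such a share. At 8 days they were 0 with DESeq2 size factors or effective lengths. At 11 days they were 0 with library size only or effective lengths, 2 with filterByExpr or limma voom, and 3 with DESeq2. All groups in one fit gave 1 at 11 against 4 days, and no filter or DESeq2 gave 1 at 11 against 8 days. The F test gave 1 without the mitochondrial genome in the library size, and 4 with no filter, DESeq2 or limma voom. Leaving out a heart gave 1 to 5 at 4 days, 0 to 1 at 8 days, 0 to 5 at 11 days and 2 to 4 in the F test (4 without saline D or 8-day C). What the letters shared between groups stand for is not given. The replicate block, which treats hearts of the same letter as a set, gave 4, 4 and 1 at 4, 8 and 11 days and 1 at 11 against 8 days. Those at 8 days were other genes than Synpo2 (-0.342, adjusted p from edgeR = 0.139): Myh11 (0.935, adjusted p = 0.000223), Cnn1 (2.05, adjusted p = 0.000552), Tagln (0.706, adjusted p = 0.0296) and Lmod1 (0.999, adjusted p = 0.0366). At 4 days Acta2 and Cnn1 were added, and at 11 against 4 days Cnn1 was called and Smtn was not.

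The changes of sign, in log2, were as follows. For 4 days, Smtn was 0.191 by library size only, 0.0549 without the mitochondrial genome, and 0.202 and 0.198 on FPKM plus 0.1 and plus 1, the order kept below. For 8 days, Acta2 was -0.0472 and -0.0391 on FPKM, and Notch3 -0.00607 by library size only, -0.0592 without the mitochondrial genome, and -0.061 and -0.0449 on FPKM. For 11 days, Notch3 was 0.0453 by library size only, and 0.0453 and 0.0391 on FPKM. For 8 against 4 days, library size only, the size without the mitochondrial genome and both FPKM scales gave -0.176, -0.0591, -0.316 and -0.264 for Tagln, -0.147, -0.0617, -0.161 and -0.159 for Rgs5, and -0.267, -0.182, -0.23 and -0.203 for Synpo2, which was -0.0115 with the replicate block, and Cnn1 was 0.00498 with DESeq2. For 11 against 4 days, Rgs5 was -0.117, -0.0701, -0.113 and -0.111 in the same order, and effective lengths gave 0.0636 for Tagln and 0.0976 for Synpo2. For 11 against 8 days, the same order gave 0.0874, 0.0529, 0.254 and 0.245 for Smtn, 0.0515, 0.0113, 0.106 and 0.0841 for Notch3, and 0.127, 0.0859, 0.199 and 0.176 for Synpo2. There effective lengths gave 0.059 for Smtn and 0.0298 for Synpo2, Rgs5 was 0.0301 by library size only and 0.0481 and 0.0473 on FPKM, and Tagln was 0.0513 with the replicate block and 0.245 and 0.2 on FPKM.

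Over fits that left out a heart, the sign also varied for Smtn at 4 days (-0.0401 to 0.0078), for Acta2 (-0.407 to 0.48), Tagln (-0.169 to 0.858) and Notch3 (-0.0171 to 0.135) at 8 days, and for Acta2 (-0.226 to 0.0332) and Notch3 (-0.113 to 0.038) at 11 days. It varied at 8 against 4 days for Tagln (-0.549 to 0.365), Myh11 (-0.039 to 0.674), Cnn1 (-0.508 to 0.384), Notch3 (-0.129 to 0.0349) and Synpo2 (-0.0434 to 0.0502). It varied at 11 against 4 days for Tagln (-0.202 to 0.0476), Myh11 (-0.00951 to 0.243), Rgs5 (-0.0118 to 0.038) and Synpo2 (-0.0663 to 0.0415). At 11 against 8 days it varied for Acta2 (-0.606 to 0.266), Tagln (-0.416 to 0.482), Myh11 (-0.527 to 0.18), Lmod1 (-0.395 to 0.171), Smtn (-0.163 to 0.0762) and Synpo2 (-0.0881 to 0.0258). The cause was not tested.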
